A study of Mus musculus with 6 samples.

Results

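The neurotransmitter receptors described here were the ionotropic and metabotropic receptors for GABA, the glycine receptors, and the glutamate receptors other than the AMPA type, in the cerebellum of newborn mice with and without a conditional deletion of Zeb2. Members were the loci whose symbol is that of a GABA-A subunit (the alpha, beta, gamma, delta, epsilon, pi, theta and rho genes), a GABA-B subunit, a glycine receptor subunit, an NMDA, kainate or delta receptor subunit, or a metabotropic glutamate receptor. The symbols found 47 loci of 23793 in the table. The rule itself used no expression value, but it was set with earlier results of these data known. Each held a single gene, and all 47 were matched to a GENCODE M21 gene (GRCm38), from which the coordinates below are taken.

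The libraries were made from whole cerebellum of mice at postnatal day 0, with 3 control libraries of genotype Zeb2 f/+; hGFAP-cre, and 3 conditional knockout (cKO) libraries, of genotype Zeb2 f/f; hGFAP-cre. Both groups carried the Cre transgene, which is driven by a human GFAP promoter that acts in neural progenitors and glia, and the controls kept 1 unfloxed allele of Zeb2, a gene for a zinc finger transcription factor. The title of the series names Bergmann glial development and cerebellar organization as its subject. No label says whether libraries of a group were from different animals, and the p-values rest on the spread among these libraries, which may be technical.

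GABA-A and glycine receptors are chloride channels built of several subunits, whose alpha, beta and gamma members set where the channel sits and how it responds. GABA-B receptors are obligate pairs of a ligand-binding and a signalling subunit that act through G proteins. NMDA and kainate receptors are glutamate-gated cation channels, the delta receptors bind cerebellins and organise synapses, and the metabotropic glutamate receptors act through G proteins, those of group I by raising and those of groups II and III by lowering intracellular signals. In immature neurons the chloride gradient lets GABA depolarise, and several of these families replace fetal by adult subunits after birth.

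Values were FPKM, a level scaled for transcript length and library size, so levels of different genes could be set beside each other. The test was limma on log2(FPKM + 1), for the 13612 loci that reached 1 FPKM in 3 or more libraries, 33 of the 47 receptor genes among them. A log2 fold change is cKO minus control on that scale, and it understates the change of genes near 1 FPKM. Library sums lay between 497542 and 524474 FPKM, and how many reads they rest on is unknown here. Zeb2 (in the locus named Mir5129,Zeb2) was at 11.4, 9.52 and 7.995 FPKM across the controls, against 6.19, 3.89 and 5.81 FPKM across the cKO libraries, every cKO value under every control value, with a limma adjusted p of 0.107. Xist was at 0.394 ± 0.105 FPKM across the controls, against 144.0 ± 3.05 FPKM across the cKO libraries (SD, n = 3 each), and 4 of 4 Y-linked genes were called lower. Genotype and sex therefore cannot be told apart in any difference given below. Fewer cells of a type and less RNA per cell cannot be told apart in whole tissue either.

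The promoter stretches of 4 members are shown because their genes differ in what they did: Gabra2, Grm7 and Grin1 had every cKO value above every control value, and Gabrg1, the next gene to Gabra2 in the same cluster, did not. Each is the 250 bases before the RefSeq transcript start (GRCm38.p6), read 5′ to 3′ on the strand of the gene, and none overlaps a GENCODE exon. Capitals mark CACCTG or its reverse complement CAGGTG, the E-box letters that Zeb proteins are known to bind. Where a gene had several starts the most upstream is shown.
Gabra2 (chr5:71095850-71096099, minus strand): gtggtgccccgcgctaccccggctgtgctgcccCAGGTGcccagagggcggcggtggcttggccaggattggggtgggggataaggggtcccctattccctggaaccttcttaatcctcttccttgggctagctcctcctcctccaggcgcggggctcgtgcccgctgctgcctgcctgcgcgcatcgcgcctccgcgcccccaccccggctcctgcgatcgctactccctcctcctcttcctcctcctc
Gabrg1 (chr5:70842618-70842867, minus strand): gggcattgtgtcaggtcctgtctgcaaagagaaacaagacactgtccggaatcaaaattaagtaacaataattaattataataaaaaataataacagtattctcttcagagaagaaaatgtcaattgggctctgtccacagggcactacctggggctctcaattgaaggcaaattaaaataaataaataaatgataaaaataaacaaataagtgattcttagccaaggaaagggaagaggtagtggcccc
Grm7 (chr6:110645262-110645511, plus strand): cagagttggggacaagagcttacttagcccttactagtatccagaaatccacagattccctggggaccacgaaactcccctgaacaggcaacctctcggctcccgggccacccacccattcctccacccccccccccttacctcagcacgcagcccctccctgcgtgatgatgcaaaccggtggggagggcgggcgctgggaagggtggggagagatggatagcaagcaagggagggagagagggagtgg
Grin1 (chr2:25319188-25319437, minus strand): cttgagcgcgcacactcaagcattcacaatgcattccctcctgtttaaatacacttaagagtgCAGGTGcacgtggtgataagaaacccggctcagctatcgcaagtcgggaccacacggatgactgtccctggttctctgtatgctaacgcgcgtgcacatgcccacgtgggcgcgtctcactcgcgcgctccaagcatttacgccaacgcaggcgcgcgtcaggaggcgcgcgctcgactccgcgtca
The letters were in the Gabra2 and Grin1 stretches and not in the Gabrg1 or Grm7 stretches shown. They were also in the most upstream stretches of Gabrb2 and Grik3, whose groups overlapped. The stretches of Gabbr2, Grik5 and Grm2, genes with every cKO value above every control value, lacked them. Of the 33 members with a promoter entry, 8 (24.2%) had the letters on either strand of at least 1 stretch of 250 bases, against 19.4% of 27025 genes. A match is a description of the letters only, and binding was not measured here.

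None of the 33 tested receptor genes passed the threshold of adjusted p 0.05 in the fit across all loci (limma, Benjamini-Hochberg), where 0.242% of all tested loci were called higher and 0.331% lower, 0.573% together. An unadjusted limma p under 0.05 was found for 12 of the 33, against 17.6% of all tested loci. Of the 33, 11 had such a p with the higher mean in cKO and 1 with the lower, against 7.82% and 9.79% of all tested loci. In 10 of the 33 every cKO value lay above every control value, against 10.3% of all tested loci. In 1, the kainate receptor gene Grik2, every cKO value lay below, against 13.6% of all tested loci. The log2 fold change was above 0 in 27 of 33 members and in 47.02% of all tested loci, with medians of 0.08 over the members and -0.0095 over all loci. In a fit without the small-RNA loci, Gabra2, Gabbr2 and Grm8 passed as higher in cKO (adjusted p 0.0408, 0.0362 and 0.0395) and none as lower, against 0.964% of 13377 loci called higher, 1.51% lower and 2.47% together. The same 3 passed with robust variance estimation, where 0.955% of loci were called higher, 1.51% lower and 2.47% together. At a threshold of 0.1 Grin3a joined them, with 1.16% of all loci called higher and 1.84% lower. The summed level of all 47 genes was 637 to 648 FPKM across the controls, against 674 to 691 FPKM across the cKO libraries, and the ranges did not overlap.

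**Figure D1:**
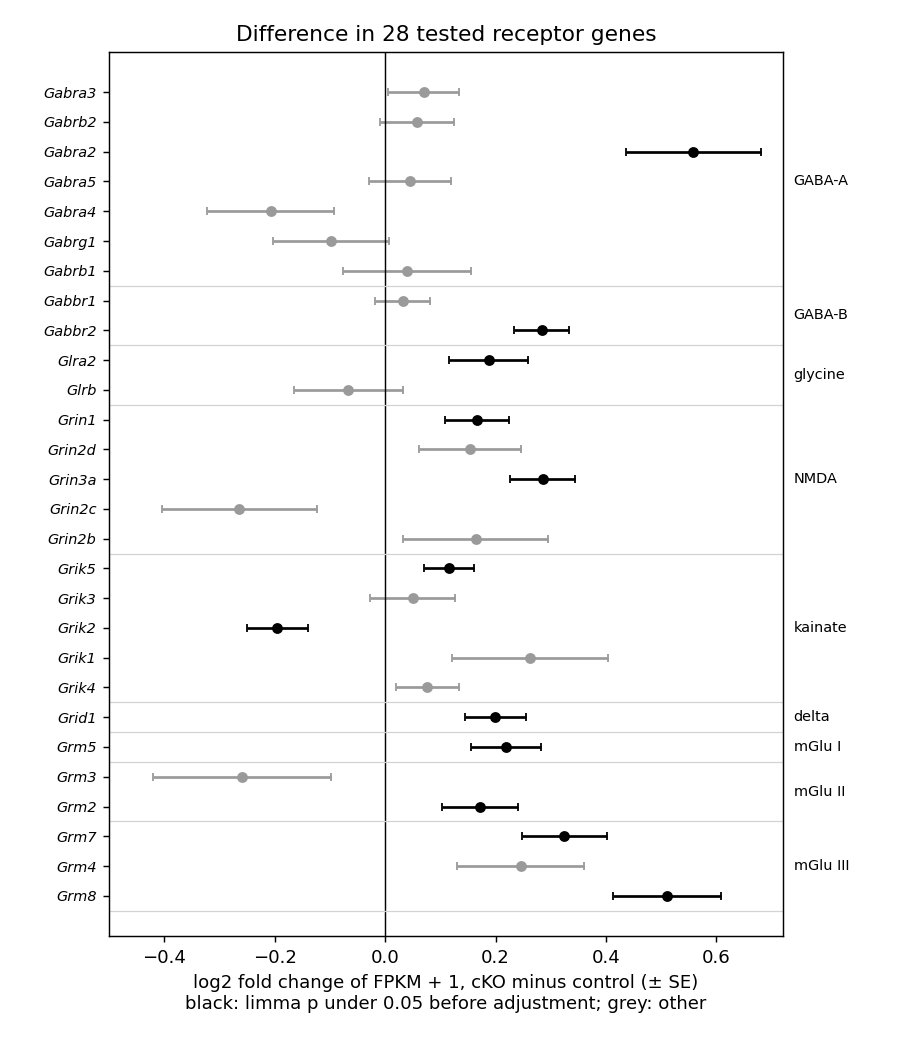
Log2 fold change of FPKM + 1, cKO minus control, with its SE (bars) for 28 tested receptor genes, by class; black points had a limma p under 0.05 before adjustment. Of the 28 points 22 lie right of 0, Gabra2 (0.56) and Grm8 (0.51) farthest, and Grik2 (-0.20) is the only black point to the left.

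GABA-A receptors, the fast inhibitory channels, were represented by 15 genes, of which 10 were tested. Of these 10, 8 had a log2 fold change above 0, and the class summed to 139.8 to 144.2 FPKM across the controls, against 148 to 156.7 FPKM across the cKO libraries.

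Among the 10 tested GABA-A genes, Gabra2 was the one whose groups lay apart. It encodes alpha2, a subunit typical of fetal and newborn brain. Its level was 8.66, 12.7 and 10.9 FPKM across the controls, against 16.6, 16.1 and 15.7 FPKM across the cKO libraries. The cKO libraries lay close together and the controls were spread, with control 1 lowest. The means of 10.7 ± 2.01 and 16.1 ± 0.477 FPKM (SD, n = 3 each) gave a log2 fold change of 0.56 (SE 0.12, limma adjusted p 0.0946). Leaving out each library in turn gave log2 fold changes of 0.43 to 0.68.

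Gabra2 lies in a cluster of 4 GABA-A genes on chromosome 5 (GRCm38, 70751047 to 72149037), in the order Gabrg1, Gabra2, Gabra4 and Gabrb1. The groups overlapped for each of its neighbours. Gabra4, an alpha subunit gene of extrasynaptic channels, was at 5.57 ± 0.313 FPKM across the controls, against 4.73 ± 0.859 FPKM across the cKO libraries (log2 fold change -0.21, SE 0.11). Gabrg1, a gamma subunit gene, was at 4.30 ± 0.496 and 3.95 ± 0.50 FPKM, and Gabrb1, a beta subunit gene, at 3.42 ± 0.121 and 3.58 ± 0.678 FPKM (SD, n = 3 each). The log2 ratio of Gabra2 to Gabra4 was 0.58, 1.13 and 1.04 in the controls and 1.56, 2.03 and 1.70 in cKO, without overlap (exact two-sided permutation p = 0.1, the smallest that 3 libraries against 3 allow). That pair was chosen after its values were seen. The annotated Gabra4 and Gabrb1 loci overlap at their starts on opposite strands, so reads from the overlap are uncertain between them.

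The other GABA-A clusters held no tested member whose groups lay apart. Gabrb2, a beta subunit gene on chromosome 11, was at 15.6 ± 1.21 FPKM in controls and 16.2 ± 0.638 FPKM across the cKO libraries (SD, n = 3 each). Gabra5, the gene of an extrasynaptic alpha subunit on chromosome 7, was at 6.32 ± 0.496 and 6.55 ± 0.362 FPKM. Gabrg3, in the same cluster, was below the filter at 0.687, 0.780 and 0.655 FPKM across the controls, against 0.808 to 1.04 FPKM across the cKO libraries, where the groups lay apart. On the X chromosome (72255999 to 72842602) Gabra3, the highest of the alpha genes, was at 19.5 ± 0.341 and 20.6 ± 1.59 FPKM.

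As a share of the summed FPKM of Gabra2 to Gabra5, Gabra2 took 21.7, 28.4 and 25.8% in the controls and 35.02, 34.2 and 31.6% in cKO, without overlap. Gabra3 took the largest share in all 6 libraries, 44.5 to 49.2% in the controls and 40.1 to 44.8% in cKO. The share of Gabra4 was 12.4 to 14.4% in the controls and 8.21 to 11.8% in cKO, also without overlap. The pool as a whole was 42.2 ± 2.36 FPKM across the controls, against 47.98 ± 1.35 FPKM across the cKO libraries (SD, n = 3 each).

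**Figure D2:**
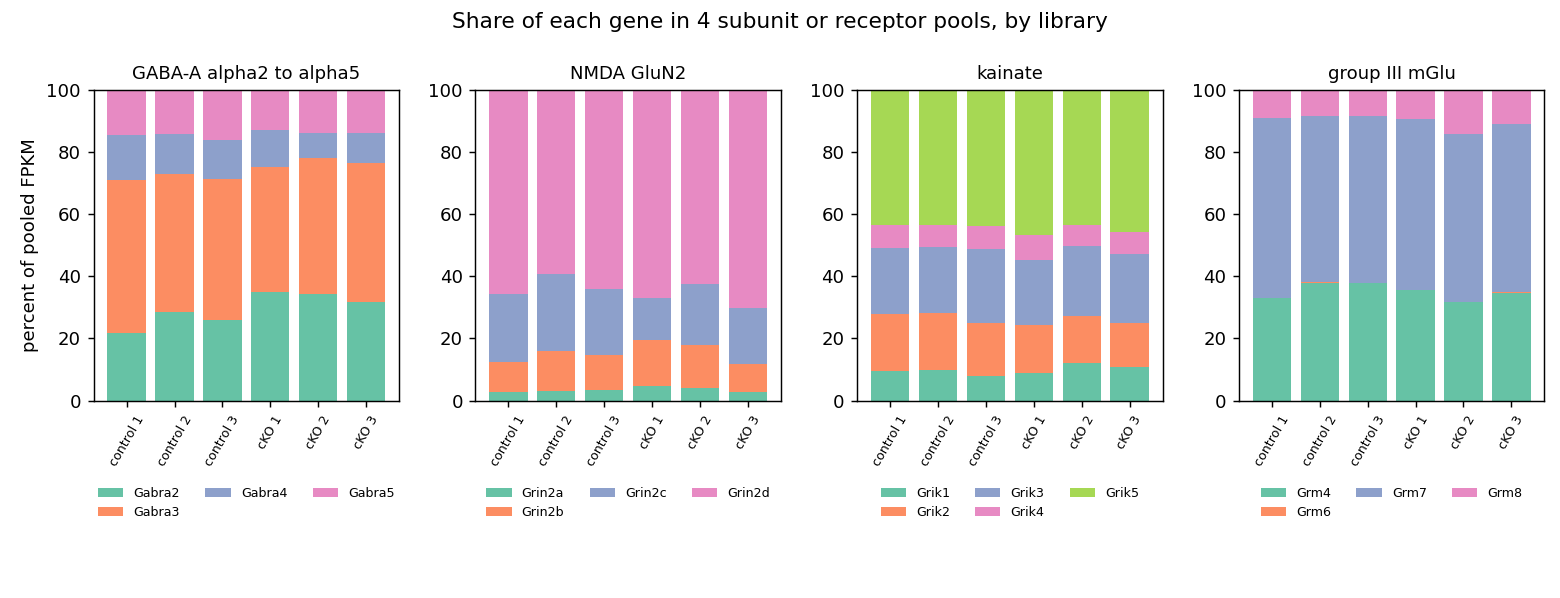
Share of each gene in the summed FPKM of 4 pools (GABA-A alpha2 to alpha5, NMDA GluN2, kainate and group III metabotropic receptors), 1 stacked bar for each library. The Gabra2 share is 21.7 to 28.4% in the controls and 31.6 to 35.02% in cKO, and the Grik2 share is 17.3 to 18.4% against 14.3 to 15.2%.

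The GABA-B subunit gene Gabbr1 had the highest level of all members. Gabbr1 (chromosome 17, 37045966 to 37075067), the ligand-binding subunit, was at 106, 107 and 106 FPKM across the controls, against 104, 109.9 and 113 FPKM across the cKO libraries, so the groups overlapped (log2 fold change 0.03, SE 0.05). Gabbr2 (chromosome 4, 46662305 to 46991873), the subunit that couples to the G protein, was at 31.2, 32.98 and 32.7 FPKM across the controls, against 38.1, 41.0 and 39.5 FPKM across the cKO libraries. All 3 cKO values lay above all 3 controls, with means of 32.3 ± 0.934 and 39.5 ± 1.49 FPKM (SD, n = 3 each) and a log2 fold change of 0.28 (SE 0.05, limma adjusted p 0.0723). It was the member with the smallest p, 8.44e-04 before adjustment. Leaving out each library in turn kept its log2 fold change between 0.26 and 0.31. The log2 ratio of Gabbr2 to Gabbr1 was -1.76, -1.70 and -1.70 in the controls and -1.45, -1.42 and -1.51 in cKO, a pair chosen after its values were seen (exact two-sided permutation p = 0.1).

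Glycine receptors were represented mainly by the gene of the fetal alpha2 subunit, Glra2, and of the beta subunit that binds gephyrin, Glrb. Glra2, on the X chromosome, was at 20.7, 19.1 and 19.7 FPKM across the controls, against 20.6, 24.1 and 23.6 FPKM across the cKO libraries. The library cKO 1 lay within the control range and the other cKO libraries above it (log2 fold change 0.19, SE 0.07, limma adjusted p 0.249). Glrb was at 21.4, 16.3 and 18.1 FPKM across the controls, against 17.4, 17.0 and 18.5 FPKM across the cKO libraries, with overlap. Glra2 made up 96.1 to 97.8% of the summed alpha subunit FPKM in every library, and Glra1, the adult alpha subunit gene mutated in startle disease, was at 0.329 to 0.563 FPKM. The log2 ratio of Glra1 to Glra2 differed by -0.02 between groups (exact permutation p = 1).

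NMDA receptors, which need glycine or D-serine as well as glutamate, were led by the obligatory subunit gene Grin1. Grin1 was at 30.9, 32.6 and 35.2 FPKM across the controls, against 37.4, 36.6 and 36.9 FPKM across the cKO libraries, without overlap (log2 fold change 0.17, SE 0.06, limma adjusted p 0.222). Grin3a (chromosome 4, 49661611 to 49845744) encodes a subunit of young neurons that lowers calcium entry. It was at 13.35, 12.5 and 13.9 FPKM across the controls, against 16.9, 15.7 and 16.5 FPKM across the cKO libraries. Again the groups lay apart, with means of 13.3 ± 0.703 and 16.4 ± 0.617 FPKM (SD, n = 3 each) and a log2 fold change of 0.29 (SE 0.06, limma adjusted p 0.0895). Grin3a lies 2.67 megabases from Gabbr2 on chromosome 4.

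The GluN2 genes, which set the kinetics of the channel, overlapped between groups. Grin2d, the GluN2 gene of the early brainstem and cerebellum, was at 15.5, 14.0 and 14.3 FPKM across the controls, against 15.7, 14.8 and 18.8 FPKM across the cKO libraries. Grin2c, a gene of mature granule cells, was at 5.21 ± 0.551 and 4.21 ± 0.898 FPKM, and Grin2b, the fetal forebrain partner, at 2.63 ± 0.417 and 3.07 ± 0.568 FPKM (SD, n = 3 each). Grin2a, which increases after birth, stayed at 0.686 to 1.10 FPKM over all libraries. Of the summed GluN2 FPKM, Grin2d held 59.4 to 65.6% in the controls and 62.4 to 70.1% in cKO, with overlap. The Grin2c share was 21.8, 24.5 and 21.1% in the controls and 13.6, 19.6 and 18.02% in cKO, so the shares lay apart although the levels overlapped. Grin2b held 9.62 to 13.1% and 9.03 to 14.8%, and Grin2a 2.91 to 3.46% and 2.87 to 4.69%, with overlap. The log2 ratio of Grin2c to Grin2b was 0.97 ± 0.16 in the controls and 0.44 ± 0.54 in cKO (SD, n = 3 each), with overlap (exact permutation p = 0.3). For Grin2a to Grin2b the difference was 0.11 (exact permutation p = 0.5) and for Grin3a to Grin1 it was 0.13 (exact permutation p = 0.2).

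**Figure D3:**
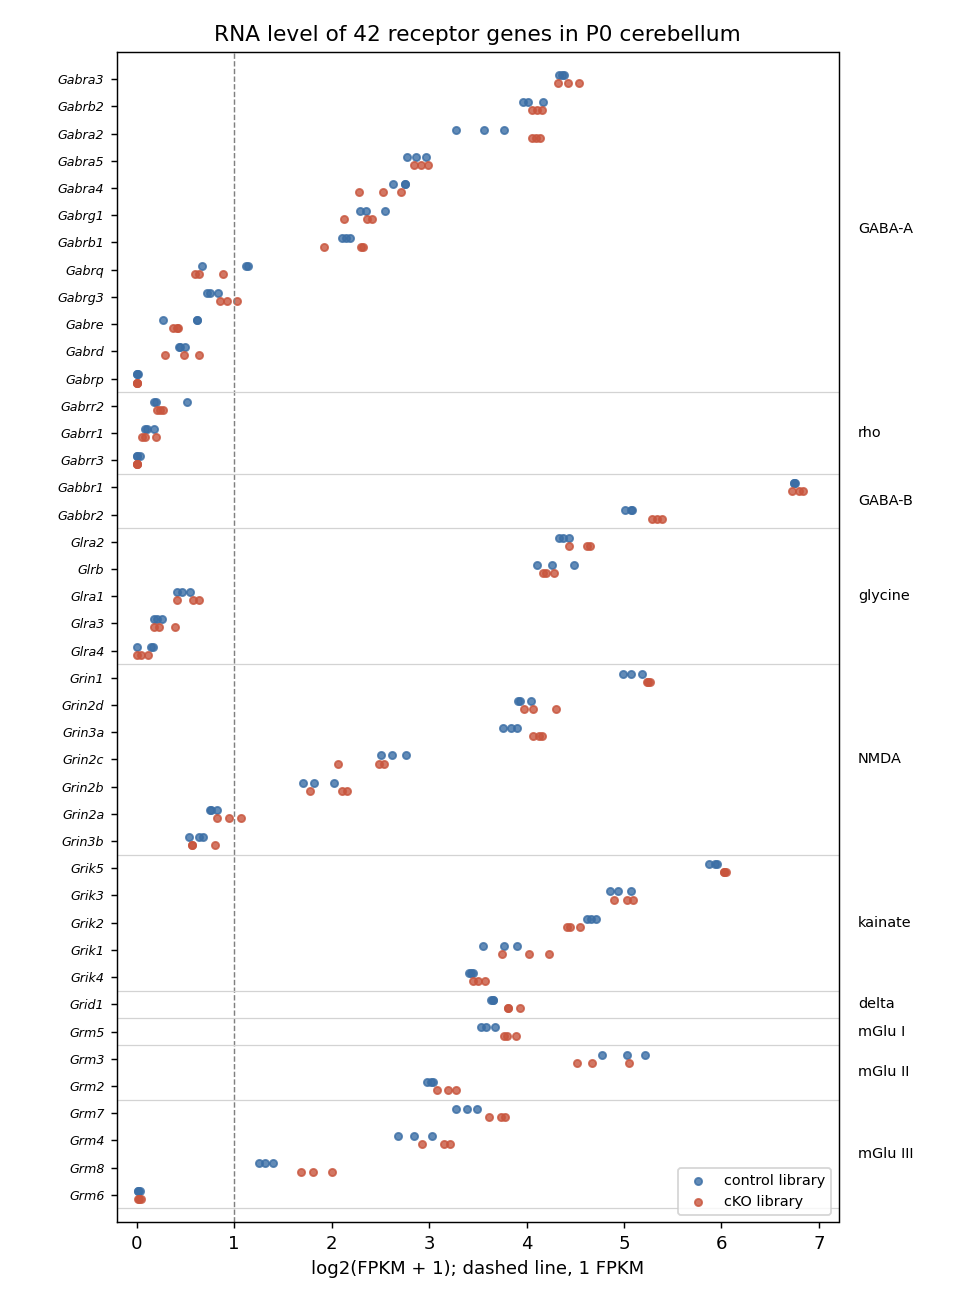
Level of 42 receptor genes as log2(FPKM + 1) in every library (blue, control; red, cKO), ordered by class and by control mean; the dashed line is 1 FPKM. Gabbr1 lies highest, and the 14 untested members lie near or under the dashed line. Genes whose groups are apart include Gabra2, Gabbr2, Grin3a, Grm7 and Grm8 (cKO higher) and Grik2 (cKO lower).

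Kainate receptors were the only class with a member lower in all cKO libraries. Grik2 (chromosome 10, 49094833 to 49788766), which encodes the pore-forming subunit GluK2, was at 24.3, 25.3 and 23.7 FPKM across the controls, against 20.8, 22.4 and 20.3 FPKM across the cKO libraries. The groups did not overlap, and the log2 fold change was -0.20 (SE 0.06, limma adjusted p 0.162). Grik5, the gene of the high-affinity subunit GluK5 that forms channels only with partners such as GluK2, was the highest of the class. It was at 57.5, 61.0 and 60.1 FPKM across the controls, against 64.1, 64.1 and 65.3 FPKM across the cKO libraries, every cKO value above every control (log2 fold change 0.12, SE 0.05, limma adjusted p 0.262). The share of Grik2 in the summed kainate receptor FPKM was 17.3 to 18.4% in the controls and 14.3 to 15.2% in cKO, and that of Grik5 was 43.6 to 43.8% and 43.4 to 46.8%. Grik3 was at 27.9, 29.7 and 32.7 FPKM across the controls, against 28.8, 33 and 31.7 FPKM across the cKO libraries, with overlap. Grik1, at 12.4 ± 1.61 and 15.2 ± 2.72 FPKM, and Grik4, at 9.80 ± 0.147 and 10.4 ± 0.525 FPKM (SD, n = 3 each), overlapped as well.

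The delta receptors bind cerebellins released by presynaptic terminals. Grid1, the gene of GluD1, was at 11.4, 11.6 and 11.6 FPKM across the controls, against 13.0, 14.3 and 13.0 FPKM across the cKO libraries. The Grid1 groups lay apart and the controls were nearly equal (log2 fold change 0.20, SE 0.06, limma adjusted p 0.154).

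Of the 7 tested metabotropic glutamate receptor genes 6 had the higher mean in cKO, 4 of them without overlap between groups, where 47.02% of all tested loci had a positive log2 fold change and 10.3% were higher without overlap. In group I, Grm5, a receptor of immature neurons and glia, was at 10.99, 10.6 and 11.8 FPKM across the controls, against 13.9, 12.9 and 12.6 FPKM across the cKO libraries, without overlap (log2 fold change 0.22, SE 0.06, limma adjusted p 0.165).

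Group II held members on opposite sides of 0. Grm2, a presynaptic receptor that marks cerebellar Golgi cells, was at 7.24, 6.86 and 7.11 FPKM across the controls, against 7.44, 8.18 and 8.71 FPKM across the cKO libraries, every cKO value above every control (log2 fold change 0.17, SE 0.07). Grm3, a receptor found on glia as well as neurons, was at 36.2, 31.7 and 26.4 FPKM across the controls, against 32.1, 24.5 and 21.9 FPKM across the cKO libraries. The Grm3 groups overlapped, each with a spread of about the size of the difference (SD 4.91 and 5.29 FPKM, log2 fold change -0.26, SE 0.16). Its log2 fold change was -0.70 between control 1 and cKO 3 and -0.04 in the other 4 libraries. Those are the sets into which the steps between low values divide the libraries, called low-value sets below. No label names them.

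All 3 tested genes of group III, the presynaptic autoreceptors, had higher means in cKO, with a median log2 fold change of 0.32. Grm7 (chromosome 6, 110645581 to 111567230), the receptor with the lowest affinity for glutamate, was at 9.51, 8.71 and 10.2 FPKM across the controls, against 12.8, 11.2 and 12.4 FPKM across the cKO libraries. These groups lay apart (log2 fold change 0.32, SE 0.08, limma adjusted p 0.115). Grm8 (chromosome 6, 27275119 to 28135178), a related high-affinity receptor, was at 1.49, 1.39 and 1.63 FPKM across the controls, against 2.23, 3.00 and 2.51 FPKM across the cKO libraries. Its means of 1.505 ± 0.123 and 2.58 ± 0.391 FPKM (SD, n = 3 each) differed 1.71-fold, the highest ratio among the tested members, with no overlap (log2 fold change 0.51, SE 0.10, limma adjusted p 0.0788). Grm4, the group III receptor of granule cell terminals, was at 5.41, 6.18 and 7.197 FPKM across the controls, against 8.27, 6.60 and 7.91 FPKM across the cKO libraries, with overlap. The summed level of the group III genes was 16.3 to 19.1 FPKM across the controls, against 20.9 to 23.3 FPKM across the cKO libraries.

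**Figure D4:**
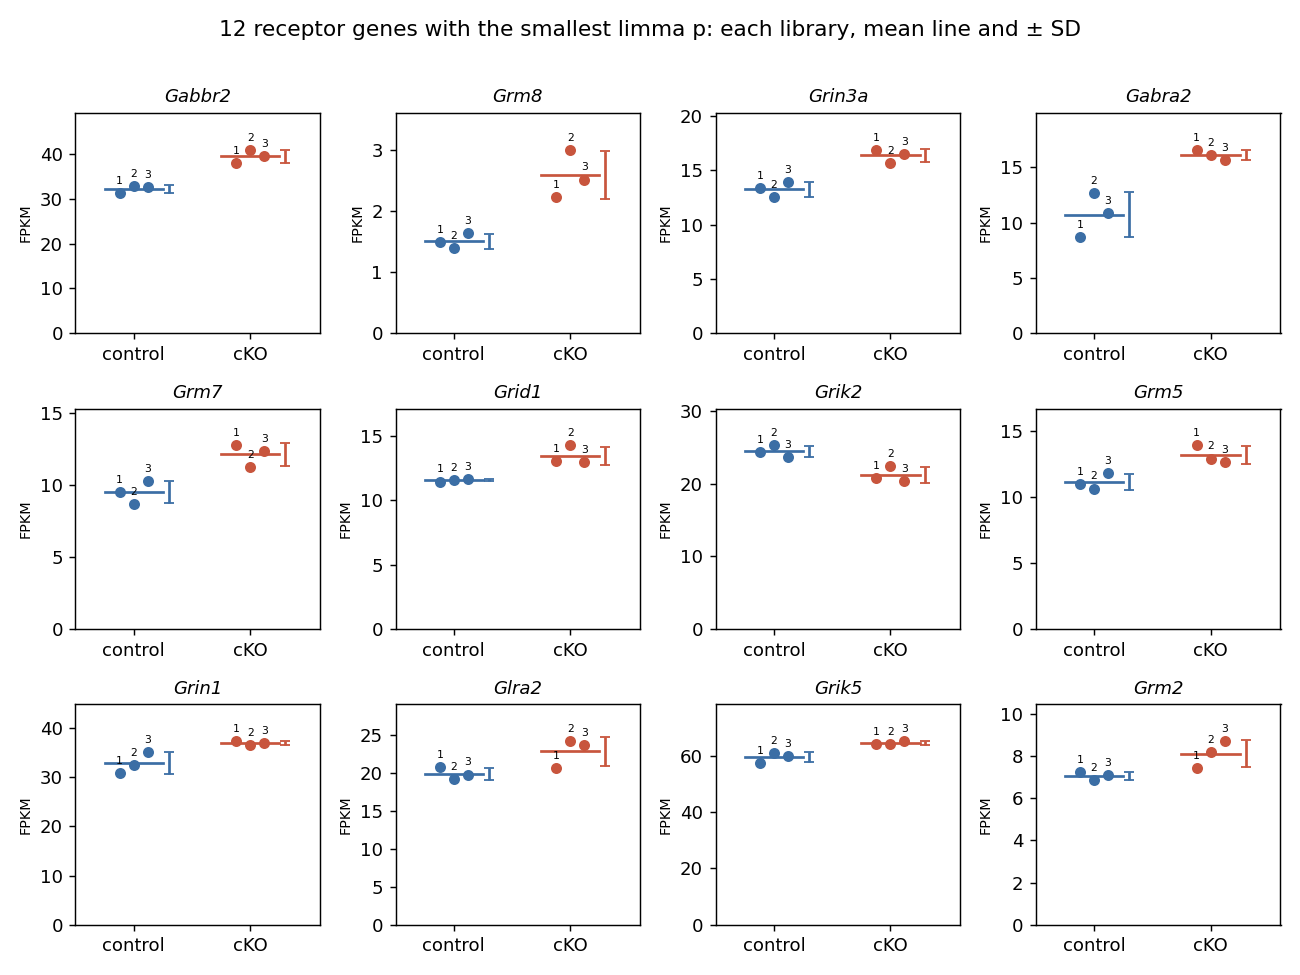
FPKM of the 12 receptor genes with the smallest limma p, each library a numbered point, with the group mean (line) and SD (bar, n = 3); axes start at 0. In 11 of the 12 the groups do not overlap, Grik2 being the one with cKO below the controls, and Glra2 is the gene whose groups overlap, at cKO 1.

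By class, the median log2 fold change was 0.05 over 10 GABA-A genes, 0.16 over 2 GABA-B genes, 0.06 over 2 glycine receptor genes, 0.16 over 5 NMDA genes and 0.08 over 5 kainate genes. It was -0.04 and 0.32 for groups II and III of the metabotropic glutamate receptors, against -0.0095 over all tested loci. Groups did not overlap in 6 of the 24 tested ionotropic and delta receptor genes and in 5 of the 9 tested metabotropic genes, GABA-B included. Over all tested loci the share without overlap, in either direction, was 23.9%. With 1 library left out, the median lay between 0.0135 (without cKO 3) and 0.0686 (without control 1) for GABA-A genes and between 0.0040 (without control 2) and 0.126 (without control 1) for glycine receptor genes. In the first deposit the GABA-A median was 0.00868. The group II median turned sign, from -0.0996 without control 3 to 0.0163 without control 1. It was 0.050 in the larger low-value set (controls 2 and 3, cKO 1 and 2). The difference between classes was not tested.

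The 14 members below the filter held every rho subunit gene and the retinal receptor gene Grm6. Gabrr1, Gabrr2 and Gabrr3, the rho genes of retinal GABA channels, summed to 0.204 to 0.561 FPKM across the controls, against 0.246 to 0.306 FPKM across the cKO libraries. Grm6, the receptor of retinal ON bipolar cells, was at most 0.0361 FPKM, and Gabrp was listed at 0 in 5 of 6 libraries. Gabrd, the delta subunit gene that mature granule cells use, was at 0.227 to 0.564 FPKM over all libraries. Gabrq passed 1 FPKM in controls 2 and 3 only, at 1.21 and 1.17 FPKM. Gabre, Glra3, Glra4 and Grin3b were at most 0.538, 0.317, 0.127 and 0.744 FPKM.

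A list of 28 textbook partners of these receptors (anchors, auxiliary subunits, ligands and chloride transporters) was measured in full, and none passed in the same fit (limma). Before adjustment 6 had a limma p under 0.05 with a higher and 1 with a lower level in cKO, against 7.82% and 9.79% of all tested loci. The median log2 fold change was 0.06. Without overlap between groups, 6 were higher and 2 lower (Trak2 and Srr), against 10.3% and 13.6% of all tested loci. Dlg4, the scaffold PSD-95 that binds NMDA receptors, was at 77.97, 77.8 and 77.5 FPKM across the controls, against 92.1, 86.8 and 84.9 FPKM across the cKO libraries. Shisa7, a GABA-A auxiliary protein, was at 21.9, 22.7 and 21.2 against 24.5, 24.5 and 25.9 FPKM. Neto2, the kainate receptor auxiliary subunit, was at 45.3, 41.03 and 43.2 against 50.3, 47.8 and 46.7 FPKM. In these 3 genes every cKO value lay above every control.

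Slc12a5, the exporter KCC2 that makes GABA inhibitory, was at 32.5, 34.2 and 36.0 FPKM across the controls, against 37.6, 37.4 and 42.0 FPKM across the cKO libraries, and Slc12a2, the importer NKCC1, at 15.03, 14.9 and 12.1 against 11.2, 10.96 and 12.4 FPKM. The groups lay apart for Slc12a5 and overlapped for Slc12a2, and neither passed (limma adjusted p 0.232 and 0.236). Their log2 ratio was 1.11, 1.19 and 1.56 in the controls and 1.74, 1.76 and 1.75 in cKO, every cKO value above every control (exact two-sided permutation p = 0.1, adjusted over 9 ratios 0.3).

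Of 6 proliferation genes all 6 were lower in cKO without overlap, 3 of them called lower (limma). Over all tested loci 10.3% were higher and 13.6% lower without overlap, and 0.242% were called higher and 0.331% lower. The summed level of the proliferation genes was 283 to 320 FPKM across the controls, against 215 to 226 FPKM across the cKO libraries. The 6 granule neuron progenitor genes summed to 201 to 247 and 109 to 140 FPKM, with 2 called lower. Of 10 Purkinje cell genes 9 had positive log2 fold changes (median 0.17), with 6 higher without overlap and 1 lower without overlap. The Purkinje cell list summed to 841 to 893 FPKM across the controls, against 912 to 974 FPKM across the cKO libraries. For 8 pan-neuronal genes the median was 0.03, none had groups apart, and the sums of 2126 to 2207 and 2111 to 2397 FPKM overlapped. Of 8 differentiating granule neuron genes 6 had negative log2 fold changes (median -0.06), with 0 higher and 2 lower without overlap. Of 8 Pax2 interneuron lineage genes 5 were negative (median -0.15), with 1 called lower, and 2 higher and 3 lower without overlap. Of 5 cerebellar nuclei genes 3 were positive (median 0.13), with 1 higher without overlap. All 3 tested noradrenergic neuron genes were negative, 2 of them lower without overlap. All 8 microglia genes were higher without overlap, 1 of them called higher, at sums of 32.8 to 34.1 and 46.0 to 49.8 FPKM. The 8 oligodendrocyte lineage genes summed to 132 to 166 FPKM across the controls, against 214 to 235 FPKM across the cKO libraries, with 1 called higher and 5 of 8 log2 fold changes below 0. Of 11 Bergmann glia and astrocyte genes 8 had negative log2 fold changes (median -0.07) and 1 was called lower. Without overlap 2 of them were higher and 4 lower, and the list summed to 2182 to 2222 against 2028 to 2168 FPKM. The 8 meningeal genes had a median of 0.96 with none called (limma), 3 at an unadjusted p under 0.05, and sums of 20.9 to 43.8 and 24.5 to 71.8 FPKM that overlapped. No gene of the Purkinje cell, pan-neuronal, microglia or proliferation lists was at 0 in any library, and the part of these cell types in the receptor differences was not tested. Within the 4 libraries of the larger low-value set (controls 2 and 3, cKO 1 and 2), the log2 fold changes of Gabra2, Gabbr2, Grin3a, Grm7 and Grm8 were 0.45, 0.26, 0.28, 0.31 and 0.52. Between control 1 and cKO 3 they were 0.79, 0.33, 0.29, 0.35 and 0.49.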

How the data were processed

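The deposited table holds 1 value per locus for each of 6 libraries. CASAVA, TopHat, Cufflinks and the mm10 build are listed in the submitters' processing notes, without versions. No label names the unit: the authors' deposited values were taken to be FPKM from their range and the Cufflinks locus names. Annotation, strand setting and read depth: not given in the sources used here. Libraries are numbered by their titles; the description of cKO 1 carries another number.

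Log2(FPKM + 1) was tested with limma 3.58.1 (R 4.3.3, variance trend, two-sided, Benjamini-Hochberg over 13612 loci); the code was tested on simulated data. Gene ratios used FPKM + 0.1. Members and lists were chosen with earlier results of these data known. Every library's value is given for members called in the main fit or without small-RNA loci, the 2 highest of each class and the 12 with the smallest p, and for partner genes the 4 with the smallest p. Slc12a2 enters through a ratio, and other members are named with group values except 5 members that are counted but not reported here one by one or drawn. Steps between low values divide the libraries into control 1 with cKO 3, and the other 4. These low-value sets were inferred from the values alone, no label names them, and their origin is unknown. By accession the first deposit holds controls 1 and 2 with cKO 1 and 2, and the second control 3 with cKO 3. Alternatives covered blocks, deposits, low-value sets, scaling, filters, pseudocounts and left-out libraries.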

Additional observations from a re-analysis of the deposited data

How the results depend on the processing

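The loci changed between cKO and control numbered 78. The count was 15 with a replicate block, whose numbers are not stated to pair libraries (correlations of deviations -0.0268, 0.0373 and 0.0488), 22 with the deposit as a covariate, 42 in the second processing set, 28 with no filter, 30 at a mean of at least 5 FPKM, 331 with small-RNA loci left out, 336 with robust variance estimation and 409 at a threshold of 0.1. Leaving out control 1, 2 or 3 gave 10, 16 or 34, and leaving out cKO 1, 2 or 3 gave 15, 25 or 41. Receptor genes called higher numbered 0, but 3 with small-RNA loci left out, 3 with robust variance estimation and 4 at a threshold of 0.1; the replicate block and each left-out library gave 0. No receptor gene was called lower and no partner gene was called under the alternatives run.

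With 1 library left out the median log2 fold change was 0.0802 to 0.103 over all members and 0.123 to 0.173 over NMDA genes. The NMDA median was 0.216 in the first deposit, 0.123 in the larger low-value set and 0.151 with library weights. The glycine median was -0.067 without X and Y loci, where Glrb alone remained. Small log2 fold changes turned sign. In the first deposit Gabrb1 was -0.0503. In the larger low-value set Glrb was 4.464e-05, Grik3 -0.0139, Gabrb1 -0.0107 and Gabra5 -0.0391. With 1 library left out the ranges were -0.154 to 0.0341 for Glrb, -0.00172 to 0.109 for Grik3, -0.0307 to 0.169 for Gabrb1 and -0.00395 to 0.0939 for Gabra5. The cause was not tested.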
